A study of Mus musculus with 9 samples.

Results

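Toll-like receptors (TLRs) are membrane proteins that recognise molecules of microbes and of damaged cells. Here 10 genes of that system were followed in mouse skin after epidermal loss of SPT6, a transcription elongation factor encoded by *Supt6*. They are the receptor genes *Tlr1*, *Tlr2*, *Tlr3*, *Tlr4*, *Tlr6*, *Tlr7* and *Tlr13*, the coreceptor *Cd14*, the adaptor *Myd88* and the inhibitor *Irak3*. The rule that picks them lists their names and uses no measured value, although earlier results of these data were known when the genes were chosen. Each had its own row among the 17943 genes of the count table.

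TLR1, TLR2, TLR4 and TLR6 sit at the cell surface, where TLR2 pairs with TLR1 or TLR6 to bind bacterial lipopeptides and TLR4 binds lipopolysaccharide (LPS) with its partner MD-2, encoded by *Ly96*. TLR3, TLR7 and TLR13 sit in endosomes and bind nucleic acids. MYD88 links the receptors other than TLR3 to the IRAK kinases and from there to NF-κB, whereas TLR3 signals through TRIF, encoded by *Ticam1*. In skin, keratinocytes carry several of these receptors, and macrophages and other myeloid cells carry a wider set.

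Whole-skin RNA from 5 control mice and 4 *Supt6*-KO mice was compared, all harvested on day 10 after the last injection. The *Supt6*-KO mice carried K14-CreERT and *Supt6* fl/fl and received tamoxifen by daily intraperitoneal injection in the first telogen of the hair cycle. The controls were *Supt6* fl/fl mice without the Cre that received corn oil, and the sample labels name them WT. Neither the strain nor the sex of the mice was given in the sources used here. K14 drives CreERT in basal keratinocytes, so the dermal and immune cells of the same skin keep *Supt6*. Cre, tamoxifen and the deletion differed together between the groups, and their parts in any difference cannot be told apart.

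The sample labels name the tissue as ear and the study's methods as dorsal skin. Of 5 genes marking cartilage, such as the ear holds, *Acan* was the most abundant in the controls, with a mean of 154 CPM. Its mean fell to 13.2 CPM in *Supt6*-KO skin, where *Hapln1* stood higher, at 22.5 CPM. The list summed to 210 to 547 CPM in the controls and 37.3 to 47.5 CPM in *Supt6*-KO mice. *Matn1*, another of the list, had 0 to 1 counts in the controls and 0 in *Supt6*-KO mice and was not tested. The 6 keratinocyte markers, of which *Krt1* passed as higher, *Krt5*, *Krt15* and *Trp63* passed as lower and *Krt14* and *Krt10*, the most abundant, did not pass, summed to 24900 to 28000 CPM in the controls and 28800 to 40600 CPM in *Supt6*-KO mice.

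The depth was 29627341 to 30491197 estimated counts per control mouse and 30597189 to 30967107 per *Supt6*-KO mouse. Levels are given as CPM, the count of a gene relative to its library. Library sizes were adjusted by TMM, a method that corrects for libraries in which some genes take up more of the counts. Fold changes are log2 values of *Supt6*-KO over control from edgeR's quasi-likelihood test, with a standard error (SE), and p-values were adjusted over the 16426 genes tested. A gene passed with an adjusted p under 0.05. The TMM factors were 1.198 to 1.315 in controls and 0.674 to 0.91 in *Supt6*-KO mice. With library totals in place of TMM, the median over all genes was -0.76 in place of -0.07, a shift of -0.69 on the log2 scale. Directions therefore hold relative to the bulk of the genes.

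*Supt6* itself stood at 33.7% of its control level, with every *Supt6*-KO mouse below every control. The level was 76.5 ± 17.2 CPM (SD, n = 5) in controls and 25.7 ± 3.31 CPM (SD, n = 4) in *Supt6*-KO mice. The log2 fold change was -1.57 (SE 0.18, adjusted p = 1.3e-05 from edgeR). It was -2.26 with library totals and -0.82 after removal of the gene length trend, a correction for fold changes that vary with the length of the genes, and passed in both.

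Of the 10 genes, all of which were tested, 8 passed as higher in *Supt6*-KO skin, 1 passed as lower and 1 did not pass. Among all genes tested, 34.1% passed as higher and 36.8% as lower. The 8 higher genes were *Cd14*, *Tlr1*, *Tlr13*, *Tlr6*, *Tlr2*, *Tlr7*, *Myd88* and *Tlr4*, in falling order of their fold change, the lower gene was *Tlr3*, and *Irak3* did not pass. For the 8 higher genes every *Supt6*-KO mouse stood above every control, while 28.9% of all genes did so and 31.8% lay below in the same sense. The median log2 fold change was 1.4 over the 10 genes and -0.07 over all genes tested, and with library totals these medians were 0.67 and -0.76. A gain of at least 2-fold was found for 6 of the 8, all but *Myd88* and *Tlr4*, and for 20.9% of all genes tested. With library totals 4 of the 10 passed at that size. The share of all genes at that size was not counted under library totals, where 16.9% passed as higher at any size. In whole skin, more cells of a type and more RNA per cell cannot be told apart.

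**Figure D1:**
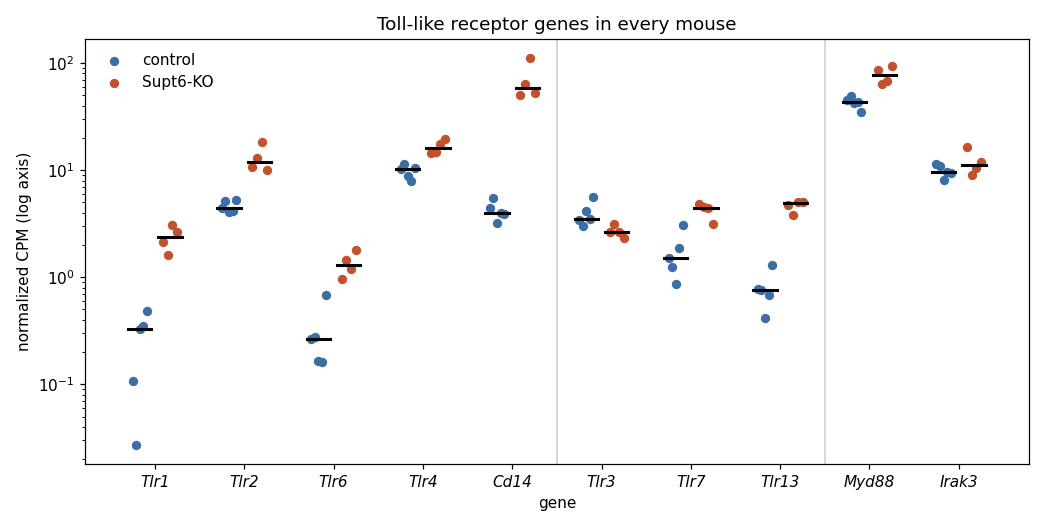
Normalized CPM of the 10 genes (log axis) in each of 5 control and 4 *Supt6*-KO mice, with surface receptors and *Cd14* on the left, endosomal receptors in the middle and *Myd88* and *Irak3* on the right. Points are mice and bars are group medians, and the groups overlap for *Tlr3* and *Irak3*.

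With library totals, 5 of the 10 passed as higher (*Cd14*, *Tlr1*, *Tlr13*, *Tlr6* and *Tlr2*), *Tlr3* passed as lower, and 4 did not pass. Of all genes tested, 16.9% passed as higher and 54.6% as lower under library totals, and 33.9% and 33.9% did so after removal of the gene length trend. Under library totals the log2 fold changes of *Tlr7*, *Myd88* and *Tlr4* were 0.57, 0.20 and 0.09, and that of *Irak3* was -0.42, on the other side of 0. All 4 lay above the shifted median of all genes. Library totals, size factors and upper-quartile factors shift all genes nearly alike, so that values relative to the median hardly differ between them, with *Tlr4* at 0.84 under TMM and 0.85 under library totals. The length correction treats genes differently, and under it *Tlr4* was at 1.02, *Irak3* at 0.28 and *Tlr3* at -0.21 relative to the median.

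**Figure D2:**
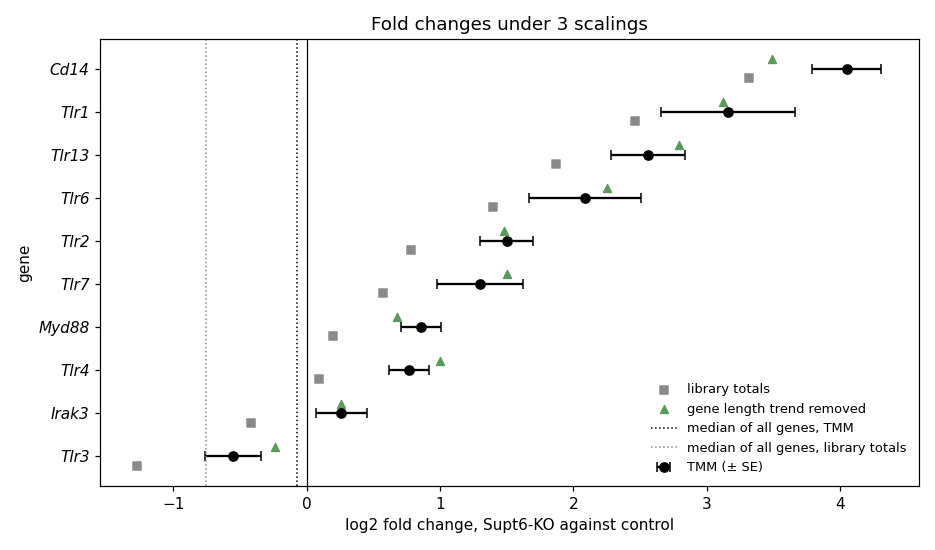
Log2 fold changes of the 10 genes under TMM (points, bars are ± SE), library totals (squares) and removal of each library's gene length trend (triangles). Dotted lines mark the median of all genes, -0.07 under TMM and -0.76 under library totals, and the squares lie left of the points for all 10 genes.

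*Cd14* showed the largest gain of the 10. CD14 is a surface protein, abundant on monocytes and macrophages, that hands LPS to the TLR4 complex and lipopeptides to TLR2. Its level was 4.44, 5.45, 3.21, 3.98 and 3.87 CPM in controls 1 to 5 and 49.8, 64.0, 111 and 52.8 CPM in *Supt6*-KO mice 1 to 4. The lowest *Supt6*-KO mouse thus stood far above the highest control, and *Supt6*-KO mouse 3 stood above the other three. The gain was 16.5-fold, with a log2 fold change of 4.05 (SE 0.26, adjusted p = 4e-07 from edgeR), and 98.4% of the genes tested had a lower fold change. The level rested on 116 to 199 counts per control mouse and 1191 to 2421 per *Supt6*-KO mouse.

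*Tlr4* (gene 21898, chromosome 4, 66827551 to 66846581 in GRCm38) gained much less. Its level was 10.2, 11.3, 8.91, 7.90 and 10.4 CPM in the controls and 14.4, 14.7, 17.7 and 19.5 CPM in *Supt6*-KO mice. The groups did not overlap, and the log2 fold change was 0.77 (SE 0.15, adjusted p = 0.00083 from edgeR). *Ly96*, the MD-2 gene, rose, with 3.28 ± 0.668 CPM (SD, n = 5) in controls against 11.2 ± 2.66 CPM (SD, n = 4), and had a log2 fold change of 1.77 (SE 0.22, adjusted p = 2.4e-05 from edgeR). After removal of the gene length trend it was 0.26 and did not pass (adjusted p = 0.12 from edgeR).

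The balance between partners was compared by the ratio of their counts inside each library, which needs no scaling between libraries but is open to a trend with gene length, for 8 pairs with p-values adjusted over the 8. The counts were not divided by gene length, so only the change of a ratio between groups is read. *Cd14* over *Tlr4* was 0.36 to 0.503 in controls and 2.70 to 6.24 in *Supt6*-KO mice. Every *Supt6*-KO mouse was above every control, and the mean log2 ratio differed by 3.22 (exact permutation p = 0.0159, the smallest that 5 mice against 4 allow, adjusted p = 0.025). With the length correction, an alternative chosen after seeing the data, the log2 fold change of *Cd14* minus that of *Tlr4* was 2.5. *Ly96* over *Tlr4* was 0.24 to 0.429 in controls and 0.843, 0.925, 0.665 and 0.379 in *Supt6*-KO mice, a log2 difference of 0.99 (exact permutation p = 0.0317, adjusted p = 0.042). *Supt6*-KO mouse 4 lay within the control range, and the direction turned with the length correction, under which the fold change of *Ly96* minus that of *Tlr4* was -0.74. Of the 8 pairs this was the one whose sign changed there. Without any single one of controls 1, 2, 4 or 5, that p was 0.0571, and without any of *Supt6*-KO mice 1, 2 or 3 it was 0.0714, before adjustment and by the same exact permutation test on fewer mice.

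**Figure D3:**
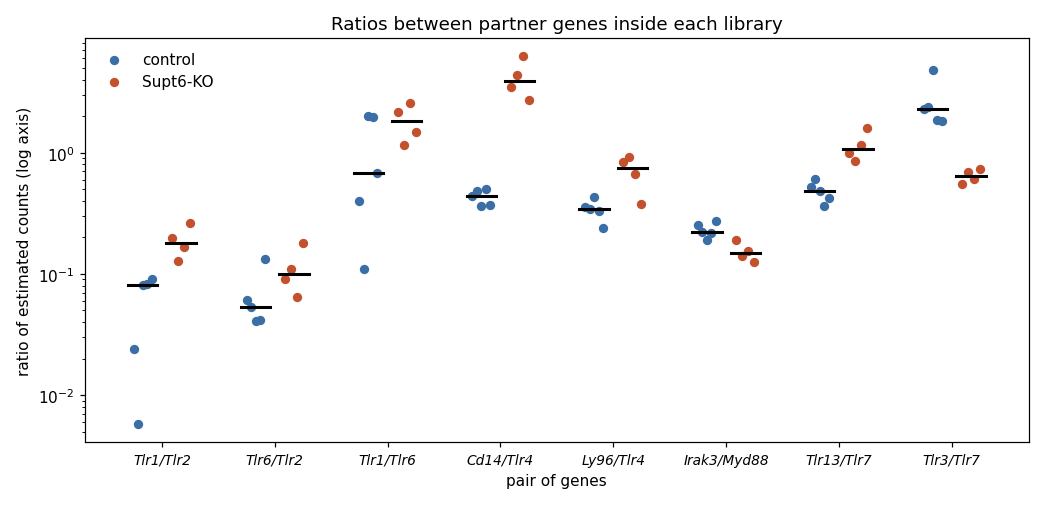
Ratios of estimated counts for 8 pairs of genes (log axis), 1 point per mouse with the group median as a bar. The groups are apart for *Tlr1*/*Tlr2*, *Cd14*/*Tlr4*, *Irak3*/*Myd88*, *Tlr13*/*Tlr7* and *Tlr3*/*Tlr7* and overlap for *Tlr6*/*Tlr2*, *Tlr1*/*Tlr6* and *Ly96*/*Tlr4*.

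*Tlr2* (gene 24088, chromosome 3, 83836272 to 83841824), the shared partner of both lipopeptide receptors, rose 2.83-fold. It stood at 4.41, 5.12, 4.10, 4.14 and 5.22 CPM in the controls and at 10.7, 13.0, 18.4 and 9.99 CPM in *Supt6*-KO mice, with no overlap. The log2 fold change was 1.5 (SE 0.20, adjusted p = 3.8e-05 from edgeR), with a range of 1.29 to 1.61 when each mouse was left out.

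*Tlr1* and *Tlr6* are neighbouring paralogs on chromosome 5, at 64924680 to 64933600 and 64953092 to 64970942. TLR1 pairs with TLR2 for triacylated and TLR6 for diacylated lipopeptides. The estimated counts of *Tlr1* were 4, 1.09, 11.99, 12.62 and 18.53 in controls and 50.54, 34.33, 66.8 and 73.3 in *Supt6*-KO mice. Those of *Tlr6* were 10, 9.91, 6.01, 6.38 and 27.47 in controls and 23.46, 29.67, 26.2 and 49.7 in *Supt6*-KO mice. Of the 9 values of each gene, 8 were not whole, as happens where reads that match both copies are split between them, so the level of either gene alone is uncertain. Both were at few counts in the controls, and control 5 had the most of each there.

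After normalization, *Tlr1* rose, with 0.260 ± 0.188 CPM (SD, n = 5) in controls against 2.36 ± 0.619 CPM (SD, n = 4), and had a log2 fold change of 3.16 (SE 0.50, adjusted p = 0.00016 from edgeR). *Tlr6* rose, with 0.311 ± 0.217 CPM in controls against 1.35 ± 0.358 CPM, and had a log2 fold change of 2.09 (SE 0.42, adjusted p = 0.00083 from edgeR). Both genes were therefore also summed, which does not depend on how shared reads were split. The sum was 14, 11, 18, 19 and 46 counts in controls and 74, 64, 93 and 123 in *Supt6*-KO mice. In CPM it was 0.572 ± 0.346 (SD, n = 5) against 3.71 ± 0.728 (SD, n = 4), a log2 ratio of the means of 2.70 (exact permutation p = 0.0159).

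The ratio of *Tlr1* to *Tlr2* counts was 0.00583 to 0.0904 in controls and 0.127 to 0.264 in *Supt6*-KO mice, a log2 difference of 2.08 (exact permutation p = 0.0159, adjusted p = 0.025). The lowest control, control 2, had about 1 count of *Tlr1*, and without it the difference was 1.49 (unadjusted exact permutation p = 0.0286). With 5 added to each count it was 1.39. The ratio of *Tlr6* to *Tlr2* differed by 0.76 on the log2 scale with overlapping groups (exact permutation p = 0.127, adjusted p = 0.14). That of *Tlr1* to *Tlr6* differed by 1.32 and ranged from 0.11 to 2 in the controls alone (exact permutation p = 0.143, adjusted p = 0.14). A difference between the gains of *Tlr1* and *Tlr6* was thus not detectable at these counts. Without control 5, the unadjusted p of *Tlr6* to *Tlr2* was 0.0286 in the exact permutation test, with a difference of 1.04.

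Among the endosomal receptors, *Tlr13* and *Tlr7* rose and *Tlr3* fell. *Tlr13* (gene 279572, chromosome X, 106143275 to 106160493) encodes a receptor for bacterial ribosomal RNA. It stood at 0.776, 0.767, 0.415, 0.676 and 1.3 CPM in the controls and at 4.76, 3.84, 5.03 and 5.07 CPM in *Supt6*-KO mice. The *Supt6*-KO mice lay close together, all above the controls, and the gain was 5.91-fold, with a log2 fold change of 2.56 (SE 0.28, adjusted p = 1.1e-05 from edgeR).

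*Tlr7* (gene 170743, chromosome X, 167303380 to 167330574) encodes a receptor for single-stranded RNA. Its level was 1.5, 1.26, 0.858, 1.87 and 3.06 CPM in the controls and 4.81, 4.51, 4.39 and 3.16 CPM in *Supt6*-KO mice. Control 5 and *Supt6*-KO mouse 4 lay next to each other between the groups. The log2 fold change was 1.3 (SE 0.32, adjusted p = 0.0034 from edgeR), and with library totals it was 0.57 and did not pass (adjusted p = 0.14 from edgeR). The ratio of *Tlr13* to *Tlr7* counts was 0.362 to 0.609 in controls and 0.851 to 1.6 in *Supt6*-KO mice, a log2 difference of 1.23 (exact permutation p = 0.0159, adjusted p = 0.025).

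*Tlr3* (gene 142980, chromosome 8, 45395665 to 45411075) encodes the receptor for double-stranded RNA and was the one gene of the 10 that passed as lower. Its level was 3.45, 3.01, 4.15, 3.49 and 5.58 CPM in the controls and 2.63, 3.12, 2.65 and 2.33 CPM in *Supt6*-KO mice. *Supt6*-KO mouse 2 lay above control 2, so the groups overlapped. The log2 fold change was -0.55 (SE 0.21, adjusted p = 0.035 from edgeR), and this call was not stable. It did not pass without *Supt6*-KO mouse 1 (adjusted p = 0.067 from edgeR), 3 (0.071) or 4 (0.07), or without control 3 (0.065) or 5 (0.072). Nor did it pass after removal of the gene length trend, at -0.24 (adjusted p = 0.33 from edgeR), or with a replicate block, at -0.39 (adjusted p = 0.12 from edgeR). Relative to *Tlr7* in the same library it was lower beyond the spread. There were 1.82 to 4.84 counts of *Tlr3* per count of *Tlr7* in controls and 0.548 to 0.739 in *Supt6*-KO mice. The log2 difference was -1.93 (exact permutation p = 0.0159, adjusted p = 0.025). Most of it came from *Tlr7*, which rose by 1.3 under TMM against -0.55 for *Tlr3*, so the ratio does not make the call of *Tlr3* firmer.

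*Myd88* (gene 17874, chromosome 9, 119335934 to 119340018) was higher in *Supt6*-KO skin. It stood at 45.0, 49.3, 42.8, 43.4 and 34.6 CPM in the controls and at 86.5, 63.4, 68.0 and 94.3 CPM in *Supt6*-KO mice, with no overlap. The log2 fold change was 0.86 (SE 0.15, adjusted p = 0.00028 from edgeR), and with library totals it was 0.20 and did not pass (adjusted p = 0.38 from edgeR).

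*Irak3* (gene 73914, chromosome 10, 120141648 to 120202130) encodes IRAK-M, an inactive kinase of the IRAK family that restrains signaling below MYD88. Its level was 11.4, 11.0, 8.08, 9.52 and 9.47 CPM in the controls and 16.3, 8.92, 10.5 and 11.8 CPM in *Supt6*-KO mice. The groups overlapped, and the log2 fold change of 0.26 did not pass (SE 0.19, adjusted p = 0.23 from edgeR). Per count of *Myd88*, *Irak3* was lower, at 0.254, 0.223, 0.189, 0.219 and 0.274 in controls and 0.189, 0.141, 0.154 and 0.125 in *Supt6*-KO mice. The mean log2 ratio differed by -0.61 (exact permutation p = 0.0159, adjusted p = 0.025). Control 3 and *Supt6*-KO mouse 1 touched at the edge of the ranges.

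Levels of different genes were compared in TPM, which divides by gene length and was deposited for the 5 controls and for *Supt6*-KO mouse 4. In controls *Myd88* was highest, with a median of 42.25 TPM (38.06 to 44.31). *Irak3* (5.78), *Cd14* (5.28), *Tlr2* (2.76), *Tlr4* (2.06), *Tlr3* (1.43), *Tlr7* (0.68), *Tlr13* (0.30), *Tlr1* (0.18) and *Tlr6* (0.17) followed in order of their median TPM. Between neighbours in this order, the ranges over the controls were apart for *Myd88* and *Irak3* only. Within a mouse the order was steadier, with *Cd14* above *Tlr2*, *Tlr2* above *Tlr4*, *Tlr3* above *Tlr7* and *Tlr7* above *Tlr13* in 5 of 5 controls, but *Tlr1* above *Tlr6* in 2 of 5. In *Supt6*-KO mouse 4 the order was *Myd88* (46.55 TPM), *Cd14* (31.47), *Irak3* (3.45), *Tlr2* (3.13), *Tlr4* (2.05), *Tlr13* (1.09), *Tlr1* (0.84), *Tlr7* (0.72), *Tlr6* (0.64) and *Tlr3* (0.46). There *Cd14* was next to *Myd88*, and *Tlr3* had moved from the middle of the order to its end. A single mouse gives no spread, and TPM were not scaled between mice.

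Promoters were examined as a description of the sequence next to the start sites, because several of these genes moved together and the study concerns NF-κB. RefSeq start sites on GRCm38.p6 gave 10 promoters of 300 bases (250 before and 50 after the start) for 7 of the genes, namely *Tlr1*, *Tlr2*, *Tlr3*, *Tlr6*, *Tlr13*, *Myd88* and *Irak3*. Both strands were searched for 4 motifs. These were GGNNTTTCC for NF-κB, held by 5.82% of 32851 promoters of the same length, TGACTCA for AP-1 (5.20%), GAGGAAGT for PU.1, a myeloid factor (3.20%), and GAAANNGAA for the IRF family (8.56%). A match to at least 1 of the 4 motifs was found in 5 of the 10 promoters. The share of the 32851 promoters with any of the 4 was not counted and can exceed each single share. The 5 of 10 can therefore not be set against those shares, and *Tlr1*, *Tlr6* and *Irak3* gave more than 1 promoter each. The 4 below are those of *Tlr3*, which holds a match to NF-κB, of *Myd88*, which holds matches to both NF-κB and IRF, and of the paralogs *Tlr1* and *Tlr6*. Each is written 5′ to 3′ on the strand of its gene, the minus strand, with the matched letters in capitals.
Tlr3, chr8:45410331-45410630: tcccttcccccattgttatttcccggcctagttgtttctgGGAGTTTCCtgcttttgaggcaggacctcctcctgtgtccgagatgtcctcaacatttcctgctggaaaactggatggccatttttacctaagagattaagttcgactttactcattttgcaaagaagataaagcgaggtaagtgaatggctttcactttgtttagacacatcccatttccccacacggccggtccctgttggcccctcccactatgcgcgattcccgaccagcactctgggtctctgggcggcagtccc
Myd88, chr9:119339969-119340268: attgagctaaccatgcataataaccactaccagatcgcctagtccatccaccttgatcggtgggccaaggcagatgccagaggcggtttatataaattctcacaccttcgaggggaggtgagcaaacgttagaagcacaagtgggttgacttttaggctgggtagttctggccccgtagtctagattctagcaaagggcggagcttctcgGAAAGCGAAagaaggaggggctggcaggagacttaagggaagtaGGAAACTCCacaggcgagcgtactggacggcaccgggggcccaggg
Tlr1, chr5:64933509-64933808: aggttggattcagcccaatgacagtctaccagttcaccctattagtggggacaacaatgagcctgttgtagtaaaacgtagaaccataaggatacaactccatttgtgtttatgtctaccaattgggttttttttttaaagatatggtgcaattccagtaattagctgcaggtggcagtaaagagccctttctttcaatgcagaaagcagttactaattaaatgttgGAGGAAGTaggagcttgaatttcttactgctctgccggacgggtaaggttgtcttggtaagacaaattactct
Tlr6, chr5:64959117-64959416: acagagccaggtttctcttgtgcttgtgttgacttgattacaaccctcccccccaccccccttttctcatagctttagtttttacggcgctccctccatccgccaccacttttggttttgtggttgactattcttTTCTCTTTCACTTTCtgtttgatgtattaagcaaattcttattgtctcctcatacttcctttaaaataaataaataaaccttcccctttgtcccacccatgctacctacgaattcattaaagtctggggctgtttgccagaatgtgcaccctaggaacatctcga
The NF-κB match of *Tlr3* began 210 bases before the start site on the gene's own strand. *Myd88* had an IRF match 40 bases before the start and an NF-κB match on the opposite strand, beginning at position 5 after it. *Tlr1* had a PU.1 match 23 bases before the start of the promoter shown and none in that of its other start site. *Tlr6* had a pair of overlapping IRF matches on the opposite strand, 115 and 109 bases before the start shown, and none at the other start site searched. For *Tlr6* and *Tlr3* the windows lie inside the span of the gene. The 5′ ends of those spans, at 64970942 and 45411075, were not searched. *Irak3* had an IRF match, on the opposite strand, at 1 of 2 start sites, and *Tlr2* and *Tlr13* had none of the 4 motifs in this window.

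The remaining genes of the pathway were described from lists of receptors, accessory proteins, adaptors, kinases, transcription factors, inhibitors, ligands and targets. The counts in this and the following lists stand beside 34.1% of all genes tested that passed as higher and 36.8% as lower. With library totals these shares were 16.9% and 54.6%, and with the length trend removed 33.9% and 33.9%. Of 5 other TLR genes, 1 passed as higher, 3 as lower and 1 did not pass, with a median log2 fold change of -1.74 (-2.37 with library totals). *Tlr8*, the closest relative of *Tlr7*, rose, with 1.18 ± 0.638 CPM (SD, n = 5) in controls against 3.45 ± 0.969 CPM (SD, n = 4), and had a log2 fold change of 1.55 (SE 0.37, adjusted p = 0.0026 from edgeR), which was 0.87 with library totals and did not pass there. *Tlr5*, the flagellin receptor, fell, with 3.06 ± 1.31 CPM in controls against 0.898 ± 0.700 CPM, and had a log2 fold change of -1.74 (SE 0.45, adjusted p = 0.0049 from edgeR). *Tlr9*, which binds unmethylated CpG DNA, and *Tlr11* fell by 1.97 and 1.89 on the log2 scale at 0 to 26 and 0 to 12 counts per mouse. *Tlr12* had 0 to 3 counts in any mouse and did not pass. For *Tlr5*, *Tlr9* and *Tlr11* the groups overlapped. Without *Supt6*-KO mouse 4, the highest of its group, *Tlr5* was at -2.47, and without *Supt6*-KO mouse 1 *Tlr9* was at -2.69. *Tlr11* did not pass without *Supt6*-KO mouse 2 (adjusted p = 0.068 from edgeR) or 4 (0.082), or without control 3 (0.063), 4 (0.073) or 5 (0.071). Of the 12 receptor genes, those that passed as higher under TMM were *Tlr1*, *Tlr2*, *Tlr4*, *Tlr6*, *Tlr7*, *Tlr8* and *Tlr13*, with no overlap between the groups for any of the 7.

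Of 11 accessory proteins, 4 passed as higher, 5 as lower and 2 did not pass, with a median of 0.02. That is near the shares of all genes tested, 34.1% higher and 36.8% lower. With library totals 1 passed as higher and 6 as lower, with a median of -0.67, and with the length trend removed the median was -0.24. Besides *Ly96*, *Ly86*, which encodes the partner of CD180, rose by 1.14 on the log2 scale (0.42 with library totals, adjusted p = 0.1 from edgeR). *Cd180* itself fell by 1.18 at 3 to 55 counts per mouse, and it did not pass without any single one of *Supt6*-KO mice 2, 3 and 4 or controls 3, 4 and 5 (adjusted p = 0.052 to 0.099 from edgeR). *Nrros* and *Slc15a4* had gains of 0.59 and 0.52, and with library totals both were below 0, at -0.10 and -0.14, and did not pass. *Lbp*, which carries LPS to CD14, fell, with 24.9 ± 6.59 CPM (SD, n = 5) in controls against 7.26 ± 0.775 CPM (SD, n = 4), and had a log2 fold change of -1.78 (SE 0.20, adjusted p = 1.1e-05 from edgeR). *Tril*, a TLR4 accessory gene, had a log2 fold change of -1.83, the scavenger receptor gene *Cd36* one of -1.35 and the TLR chaperone gene *Cnpy3* one of -0.85, with every *Supt6*-KO mouse below every control for each of the 3. *Unc93b1*, which brings endosomal TLRs to their compartment, stood at 10.4 ± 2.76 and 10.6 ± 1.67 CPM (-0.67 with library totals, where it passed as lower), and the chaperone gene *Hsp90b1* at 255 ± 30.7 and 292 ± 141 CPM. For *Hsp90b1*, *Supt6*-KO mouse 4 was at 502 CPM and the other *Supt6*-KO mice at 198 to 236 CPM.

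Of 5 other adaptor genes, 2 passed as lower and 3 did not pass in edgeR, with a median of -0.46. *Ticam1*, the TRIF gene, fell, with 11.3 ± 1.97 CPM (SD, n = 5) in controls against 6.98 ± 1.03 CPM (SD, n = 4), and had a log2 fold change of -0.69 (SE 0.18, adjusted p = 0.0042 from edgeR), with no overlap between the groups. *Sarm1* fell by 2.83 on the log2 scale, to 1 to 3 counts per *Supt6*-KO mouse. *Tirap*, the bridge between MYD88 and TLR2 or TLR4, had a log2 fold change of 0.07, *Ticam2* of 0.20 and *Pik3ap1* of -0.46, and none of these 3 passed. The value of *Tirap* rested on *Supt6*-KO mouse 4, at 11.4 CPM. The other *Supt6*-KO mice, at 3.69 to 4.47 CPM, lay below every control (4.68 to 6.44 CPM). With library totals 3 of the 5 passed as lower, *Pik3ap1* among them at -1.15, which was also the median of the list. *Myd88* and *Ticam1*, the adaptors of the 2 branches of TLR signaling, thus moved in opposite directions under TMM, and under library totals *Ticam1* was at -1.37 and *Myd88* did not pass.

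Of 19 kinases and ubiquitin ligases, 9 passed as higher, 6 as lower and 4 did not pass, with a median of -0.05. Named by the smallest p, the higher genes were the ubiquitin-conjugating enzyme *Ube2n* (118 ± 18.3 to 445 ± 37.5 CPM, log2 fold change 1.91), *Tbk1* (0.82), *Map3k7*, the TAK1 gene (0.66), and *Irak4* (0.77). The lower genes were *Peli2* (-1.93), *Traf3* (-1.73), *Peli3* (-1.76) and *Tab1* (-0.71). With library totals, 1 of the 19 (*Ube2n*) passed as higher and 10 as lower, with a median of -0.71, where 54.6% of all genes passed as lower. With the length trend removed, 11 passed as higher and 6 as lower, with a median of 0.47. *Map3k7* was at -0.01 and 1.27 under these alternatives, and *Tbk1* and *Irak4*, at 0.11 and 0.10, did not pass with library totals.

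Of 10 transcription factors, 3 passed as higher, 5 as lower and 2 did not pass, with a median of -0.25. With library totals 7 passed as lower and the other 3, *Irf1*, *Irf7* and *Irf8*, did not pass in edgeR, with a median of -0.94. The 5 genes lower under TMM were those of the NF-κB family. *Rela* fell, with 54.0 ± 8.10 CPM (SD, n = 5) in controls against 21.1 ± 7.68 CPM (SD, n = 4), and had a log2 fold change of -1.36 (SE 0.23, adjusted p = 0.00025 from edgeR), and *Nfkb2* had -1.35, *Relb* -0.88, *Rel* -0.78 and *Nfkb1* -0.62. After removal of the gene length trend *Rel* was at 0.05 and did not pass (adjusted p = 0.76 from edgeR), while the other 4 passed as lower. *Irf1*, *Irf8* and *Irf3* rose by 1.03, 0.85 and 0.27 under TMM, while *Irf5* and *Irf7* had values of 0.29 and 0.12 and did not pass. The call of *Irf3* was lost without any single one of *Supt6*-KO mice 1, 3 and 4 or controls 1, 3, 4 and 5 (adjusted p = 0.059 to 0.1 from edgeR), and with the length trend removed its value was -0.08. With library totals, *Irf1* and *Irf8* were at 0.29 and 0.15, and *Irf3*, *Irf5* and *Irf7* at -0.41, -0.40 and -0.59, so that *Irf3* and *Irf5* passed as lower there.

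Of 17 further negative regulators, 7 passed as higher, 6 as lower and 4 did not pass, with a median of 0.25. These counts lie near the shares of all genes tested, 34.1% higher and 36.8% lower. With library totals 3 passed as higher and 9 as lower, with a median of -0.44. The higher genes with the smallest p were the inhibitory receptor genes *Cd300a* (1.49 ± 0.21 to 8.48 ± 2.36 CPM, log2 fold change 2.50) and *Cd200r1* (1.91), then *Nfkbiz* (1.17) and *Otulin* (0.65, and without a call at -0.04 with library totals and 0.02 with the length trend removed). The lower genes with the smallest p were *Rnf216* (-1.68), the phosphatase gene *Inpp5d* (-1.71), *Tnfaip3*, the A20 gene (-1.04), and its partner *Tnip1* (-0.63). With the length trend removed, *Tnfaip3* was at -0.36 and did not pass (adjusted p = 0.13 from edgeR). For these 8 genes, picked by their p, the groups did not overlap. Over all 17, 5 genes lay above and 4 below without overlap, beside 28.9% and 31.8% of all genes tested.

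Of 8 genes for endogenous ligands, proteins of the body that have been described to act on TLR2 or TLR4, 6 passed as higher, 1 as lower and 1 did not pass, with a median of 0.92, which was 0.24 with library totals and 1.89 with the length trend removed. The acute phase gene *Saa3* rose, with 0.178 ± 0.201 CPM (SD, n = 5) in controls against 65.1 ± 31.0 CPM (SD, n = 4), and had a log2 fold change of 8.49 (SE 0.60, adjusted p = 7.5e-07 from edgeR), from 0 to 19 counts per control mouse, and was at 9.37 without control 1. *S100a8* and *S100a9* rose by 7.87 and 7.78, *Tnc* by 1.07, *Hmgb1* by 0.77 and *Vcan* by 0.72, and with library totals, where 3 of the 8 passed as higher, *Tnc*, *Hmgb1* and *Vcan* were at 0.38, 0.10 and 0.00 and did not pass. The call of *Vcan* was also lost without any single one of *Supt6*-KO mice 1 and 3 or controls 1 to 4 (adjusted p = 0.06 to 0.1 from edgeR). With the length trend removed, *S100a8* and *S100a9* were lower, at 6.08 and 6.05. *Tnc*, *Hmgb1* and *Vcan* were then at 1.91, 0.69 and 1.86, and each of these genes passed as higher. *Bgn*, which encodes the matrix proteoglycan biglycan, fell, with 835 ± 296 CPM in controls against 98.6 ± 23.7 CPM, and had a log2 fold change of -3.08 (SE 0.28, adjusted p = 3.2e-06 from edgeR), and *Hspd1* did not pass.

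Among 18 genes that TLR signaling is known to induce, 17 had a row and 16 were tested. All 16 passed as higher, with a median log2 fold change of 3.61, and 14 passed as higher with library totals (median 2.95) and 15 with the length trend removed. Of all genes tested, 34.1%, 16.9% and 33.9% did so in turn. The list was chosen with earlier results of these data known, and the study had reported several of its genes, such as *Il1b*, *Cxcl2* and *Ccl3*, as higher in this skin. The smallest p-values were those of *Cxcl2* (log2 fold change 8.82), *Il1b* (7.09), *Ccl3* (7.96) and *Acod1*, an enzyme gene of activated macrophages (6.05, from 2 to 9 counts per control mouse to 142 to 224 per *Supt6*-KO mouse). *Il12b* had 0 to 2 counts in any mouse and was not tested, and *Ifnb1* was not analysed here. Other pathways, such as those of interleukin 1 and interleukin 17, induce many of the same genes.

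**Figure D4:**
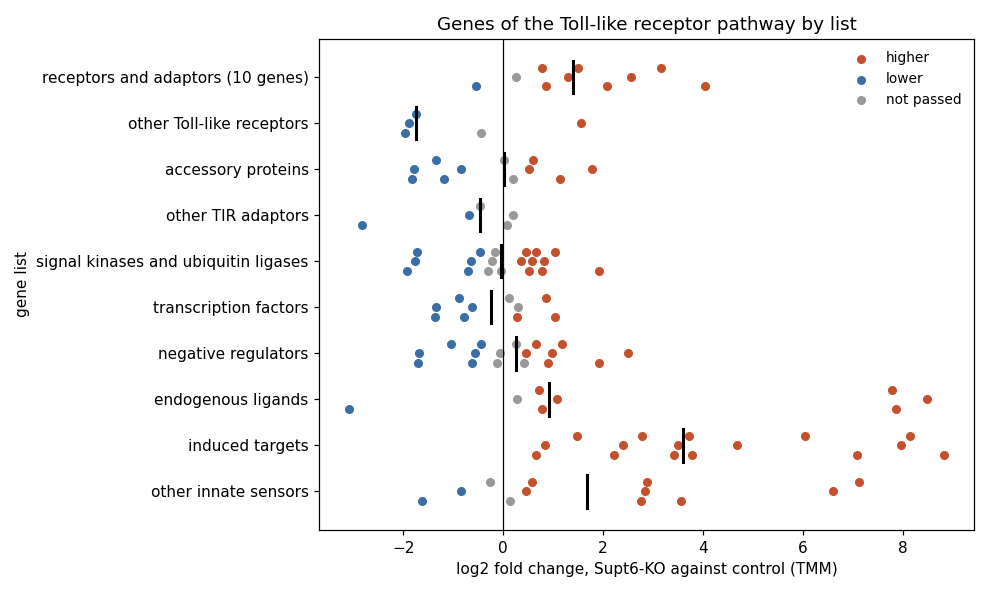
Log2 fold changes under TMM of the 10 genes, of 8 lists of other genes of the pathway and of 12 other innate sensors, with each gene as a point coloured by its call in edgeR and the median of the list as a bar. Induced targets lie to the right of 0, while kinases, transcription factors and negative regulators lie on both sides.

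Receptors of other innate families gave a comparison with sensors outside the TLRs. Of 12 such genes, 8 passed as higher, 2 as lower and 2 did not pass, with a median of 1.67. The C-type lectin genes *Clec4e*, *Clec4d*, *Clec7a* and *Clec4n* rose by 7.12, 6.61, 3.57 and 2.76 on the log2 scale. *Clec4d* also stood in the neutrophil list below. The inflammasome sensors *Aim2* and *Nlrp3* rose by 2.89 and 2.84, and *Sting1* and *Cgas* had gains of 0.58 and 0.45 that were -0.10 and -0.25 with library totals, without a call. *Sting1* also did not pass without *Supt6*-KO mouse 1 (0.45, adjusted p = 0.062 from edgeR) or with the length trend removed (0.34, adjusted p = 0.14 from edgeR). *Ddx58*, the RIG-I gene, which senses viral RNA, fell by 1.63 and *Nod1* by 0.84, while *Nod2* (-0.26) and *Ifih1* (0.14) did not pass. With library totals 6 passed as higher and 4 as lower, with a median of 0.97. *Nod2* and *Ifih1* then passed as lower, at -0.94 and -0.61, whereas *Ifih1* passed as higher with the length trend removed, at 0.71 (adjusted p = 0.039 from edgeR). A difference between the TLR genes and these sensors was not tested.

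Markers of skin and immune cells were summed per mouse over 12 lists, with exact permutation p-values adjusted over the 12, because the receptors belong to several of these cells. The 13 macrophage and monocyte markers, 9 of which passed as higher and 3 as lower, summed to 173, 145, 114, 168 and 281 CPM in the controls and 293, 266, 299 and 333 CPM in *Supt6*-KO mice. Control 5 lay within the *Supt6*-KO range, the log2 difference was 0.82 (exact permutation p = 0.0317, adjusted p = 0.0423), and with library totals it was 0.12 (exact permutation p = 0.698). *Mrc1* was the most abundant over all mice, at means of 21.7 and 80.3 CPM, whereas in the controls alone it was *Csf1r* (41.9 and 11.8 CPM). Without *Mrc1* the difference was 0.54 (exact permutation p = 0.0635). Of the single markers, 4 passed as higher with library totals and 5 with the length trend removed. The markers did not move as one: *Fcgr1* rose by 3.17 on the log2 scale, while *Csf1r* fell by 1.83 and *Cx3cr1* by 3.11.

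The 12 neutrophil markers, 9 of which passed as higher and 1 as lower, summed to 4.79 to 10.1 CPM in the controls and 60.1 to 194 CPM in *Supt6*-KO mice. The log2 difference was 3.66 (exact permutation p = 0.0159, adjusted p = 0.0238), with *Clec4d* as the most abundant gene over all mice (0.352 and 34.7 CPM) and *Ltf* at 0 in the controls, where *Cxcr2* was the most abundant (6.0 against 13.3 CPM in *Supt6*-KO mice). The 11 dendritic and Langerhans cell markers, 1 of which passed as higher and 7 as lower, summed to 840 to 1050 CPM in the controls and 99.5 to 348 CPM in *Supt6*-KO mice, a log2 difference of -2.34 (exact permutation p = 0.0159, adjusted p = 0.0238). Their most abundant gene over all mice, *Cd74*, went from 442 to 50.3 CPM. Skin with more *Cd14*, *Tlr1*, *Tlr13*, *Tlr6* and *Tlr2* thus also held more neutrophil marker RNA, and the part of these cells in the result was not tested.

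In some of the other lists the markers moved in different directions. The T cell sum was lower in every *Supt6*-KO mouse, with a log2 difference of -0.92 (exact permutation p = 0.0159, adjusted p = 0.0238). Without *Cd3g*, the most abundant T cell marker over all mice, the difference was -0.13 (exact permutation p = 0.238). *Cd3g* led the list in the controls, at a mean of 15.4 CPM. Among *Supt6*-KO mice *Cd5* led, at 8.63 CPM against 2.46 CPM for *Cd3g*. Of the 6 measured T cell markers, *Cd3e*, *Cd3g* and *Cd3d* passed as lower and *Cd4* did not pass. *Cd5* and *Cd8a* passed as higher, at 2.36 and 1.88 on the log2 scale. The keratinocyte sum differed by 0.43 (exact permutation p = 0.0159, adjusted p = 0.0238) and by -0.27 with library totals (exact permutation p = 0.0476). Its higher marker was *Krt1*, a keratin of differentiated layers, at means of 833 CPM in controls against 10400 CPM. Of the basal layer genes, *Krt5*, *Krt15* and *Trp63* fell by 0.86, 2.65 and 1.21 on the log2 scale, with every *Supt6*-KO mouse below every control. *Krt14*, also a basal layer gene, went the other way, at 0.66 with overlapping groups, and did not pass (adjusted p = 0.063 from edgeR).

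The endothelium, skeletal muscle and cartilage sums were lower in every *Supt6*-KO mouse, with log2 differences of -0.98, -1.96 and -2.82 (each with an exact permutation p of 0.0159, adjusted p = 0.0238), and 5 of 6, 4 of 5 and 4 of 4 of their tested markers passed as lower. The fibroblast sum differed by -0.94 with overlapping groups (exact permutation p = 0.0476, adjusted p = 0.0571). Without its most abundant gene *Col3a1* the difference was -1.60, and with library totals it was -1.64 (each with an exact permutation p of 0.0159), and 4 of its 6 markers passed as lower. The adipocyte sum differed by 0.04 (exact permutation p = 0.841), and by -1.64 without its most abundant gene *Fabp4* (exact permutation p = 0.0159). The other 4 adipocyte markers, *Adipoq*, *Plin1*, *Cidec* and *Lep*, passed as lower with no overlap between the groups, and *Fabp4* did not pass. The mast cell sum differed by 0.12 (exact permutation p = 0.73), with 1 of its 6 markers higher and 1 lower. The B cell sum was 0.187 to 0.575 CPM in the controls and 0.934 to 2.09 CPM in *Supt6*-KO mice, with *Ms4a1* at 0 in the controls, which are few counts.

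Each of the 10 genes was then set against the macrophage and monocyte markers inside the same library, with p-values adjusted over the 10. Per count of the 13 markers, *Cd14*, *Tlr1*, *Tlr13* and *Tlr6* were higher in every *Supt6*-KO mouse than in any control, with log2 differences of 3.17, 2.73, 1.82 and 1.41 (each with an exact permutation p of 0.0159, adjusted p = 0.0317). *Tlr3* was lower, with a difference of -1.34 at the same p-values. *Tlr2* differed by 0.65 (exact permutation p = 0.0635, adjusted p = 0.0907), *Tlr7* by 0.59 (p = 0.0476, adjusted p = 0.0794 in the exact permutation test) and *Irak3* by -0.58 (p = 0.0952, adjusted p = 0.119 in the exact permutation test), all with overlapping groups. *Tlr4* and *Myd88* differed by -0.05 and 0.03 (exact permutation p = 0.825 and 1).

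This measure depends on the markers taken. With *Csf1r*, *Adgre1* and *Fcgr1* alone, each of the 10 differences was larger by the same 1.49, since the genes share the denominator. Of these 3, *Csf1r*, the most abundant in the controls, fell (41.9 to 11.8 CPM), while *Adgre1* was the most abundant in *Supt6*-KO mice (10.6 to 15.2 CPM). *Cd14* was then at 4.66, *Tlr2* at 2.14, *Tlr4* at 1.44, *Irak3* at 0.91 and *Tlr3* at 0.15. The sign of a difference in this measure can therefore change with the marker list, while the order of the 10 genes cannot.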

How the data were processed

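RNA-Seq libraries of 5 control and 4 *Supt6*-KO mice were made with an mRNA library kit and sequenced as paired reads by the authors. According to the submitters' processing notes, mm10 was the genome, and the tools listed are HISAT, Bowtie2 2.3.4.3, RSEM 1.3.1 and DESeq2 1.4.5. The authors deposited estimated counts per gene, not normalized between mice, for all 9 mice, and TPM for the 5 controls and *Supt6*-KO mouse 4. TPM values were used only to order genes within a mouse.

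Groups and replicate numbers came from the sample titles. Of the estimated counts 9.0% were not whole, and all were rounded, so reads shared between similar genes enter as the authors' RSEM estimate. A gene was tested where its counts summed to 10 or more, which applied to 16426 of 17943 genes. Depth was about equal in all mice, and the fits took no account of mapping uncertainty. The main test was the quasi-likelihood test of edgeR 4.0.16 (R 4.3.3) with TMM factors and Benjamini-Hochberg adjustment over all genes tested, and the SE was taken from the fit. Ratios and marker sums used two-sided exact permutation tests over the mice (scipy 1.17.1), with 0.5 added to each count in a ratio. Gene identifiers were matched to RefSeq for 17850 genes, and lengths came from GENCODE for 17853. Counts were also simulated over 16318 genes, of which 200 were changed, up and down in equal number and only among genes with many counts. There edgeR recovered 65% of the genes changed 2-fold and 98% of those changed 4-fold, and 9 unchanged genes were called. These rates do not cover genes at few counts, such as *Tlr1* and *Tlr6*, nor data in which most genes pass, as here.

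The 10 genes, the lists and the tests were chosen with earlier results of these data known. Named in the text are *Supt6*, the 10 genes, every gene of lists of up to 12 genes, up to 4 genes per direction with the smallest p of longer lists, and of each marker list its most abundant gene and those at 0, with *Fcgr1*, *Csf1r* and *Cx3cr1* added after their values were seen. Alternatives were DESeq2 1.42.0, library totals, size factors, upper-quartile factors, removal of the 50 most abundant genes, other count filters, a replicate block, removal of the gene length trend by a lowess offset, a 2-fold threshold, other pseudocounts and each mouse left out. The sum of *Tlr1* and *Tlr6* was added after their values were seen.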

Additional observations from a re-analysis of the deposited data

Results flagged for a closer look

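Among 62 groups of 4 or 5 mice examined (*Supt6*, the 10 genes, 12 marker sums and 8 ratios), 4 had 1 mouse far from the others of its group, where about 3.1 would by chance. Control 5 stood apart with 0.687 CPM of *Tlr6*, against a group median of 0.267 CPM, and with a ratio of *Tlr6* to *Tlr2* counts of 0.134, against a median of 0.053. Control 3 stood apart with a ratio of *Tlr3* to *Tlr7* counts of 4.84, against a median of 2.3. *Supt6*-KO mouse 2 stood apart with 99.7 CPM of summed mast cell markers, against a median of 134 CPM.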

How the results depend on the processing

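The number of genes that passed as higher was 5608, and 2771 with library totals and 3427 when a 2-fold change was also required. With library totals 8970 passed as lower, against 6050 with TMM. Of the 10 genes, 8 passed as higher under the other alternatives, except for 5 with library totals, 6 with the 2-fold threshold and 6 where each mouse had to have 10 counts or more, since *Tlr1* and *Tlr6* were then not tested. With each mouse left out, 5305 to 5729 genes passed as higher and 5669 to 6392 as lower, and of the 10 genes 8 passed as higher and 0 to 1 as lower. *Tlr3*, the 1 lower gene, did not pass with the gene length trend removed (unadjusted p = 0.27 from edgeR), with size factors (0.042, adjusted 0.058), with the replicate block (0.088) or with the 2-fold threshold, so that 0 of the 10 passed as lower in edgeR there, and it passed in DESeq2 (adjusted p = 0.047). Its log2 fold change was below 0 in all 18 alternatives, from -1.27 to -0.24. The same sign and call held in all 18 for *Tlr2*, *Tlr13* and *Cd14* and in all 17 that could be fitted for *Tlr1* and *Tlr6*.

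Among the 10 genes and the marker sums, values that changed sign were -0.42 for *Irak3*, -0.59 for the mast cell sum, -0.27 for the keratinocyte sum and -0.66 for the adipocyte sum, all with library totals, and -1.64 for the adipocyte sum without *Fabp4*. Per count of 3 macrophage markers, *Tlr3* was at 0.15, *Tlr4* at 1.44 and *Irak3* at 0.91, by the shift of the shared denominator. For *Ly96* over *Tlr4*, the difference of the length-corrected fold changes was -0.74, an alternative chosen after seeing the data. Medians of lists that changed sign were -0.67 for accessory proteins and -0.44 for negative regulators with library totals, and 0.47 for kinases and -0.24 for accessory proteins with the length trend removed. Of the genes of these lists named as higher or lower, those whose sign changed are given with both values in the report. The cause was not tested for these. Mice with the same number were not taken as paired, since the correlation of their deviations was 0.023 to 0.267 over 4 pairs. With the replicate block 5251 genes passed as higher and 5800 as lower, and 8 and 0 of the 10, with *Tlr3* at -0.39. Depth limits *Tlr1*, *Tlr6*, *Tlr9*, *Tlr11* and *Tlr12*, which had few counts in at least 1 group.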
